A study of Homo sapiens with 12 samples.

Results

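SOX4, SOX11 and SOX12 form the SOXC subgroup of the SOX transcription factors, SOX5, SOX6 and SOX13 form SOXD, and SOX8, SOX9 and SOX10 form SOXE. These 9 genes were taken by symbol from a table of 35940 symbols, and each stood on 1 Ensembl identifier. All 9 passed the filter on low counts, SOX6 through the few libraries that hold counts, of which the control libraries were highest. Every SOX protein carries an HMG box, a DNA-binding domain that bends the DNA it binds. SOXC proteins are known as activators in neural and mesenchymal progenitors as these leave the cell cycle. SOXD proteins lack an activation domain of their own and act beside other factors, while SOXE proteins are known for cartilage, neural crest, glia and the gonad, with SOX9 also in pancreatic and bile duct progenitors.

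RNA came from ESI017, a human embryonic stem cell line, here with mCitrine on SOX2, in colonies grown 3 days on micropatterned glass, which fixes the colony shape. Control colonies had N2B27 alone, a serum-free basal medium, and their labels name no sort gate. Treated colonies had FGF8 at 200 ng/ml with WNT3A at 100, 300 or 1000 ng/ml and were sorted on mCitrine into a SOX2-positive and a SOX2-negative gate. The title of the series asks how endogenous Nodal switches WNT interpretation between posteriorization and germ layer differentiation. Groups held 2 libraries each, from separate repeats of the experiment, except 1 library per gate at 300 ng/ml, which entered no test. All 12 libraries shared the line, the reporter and the 3 days, so they describe 1 genetic background. FGF8, WNT3A and the gate differ together between control and sorted libraries and cannot be told apart there.

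Levels are in CPM: each library's counts are divided by its total, adjusted by TMM (a scaling that discounts genes with extreme ratios), and brought to a common size. Totals ran from 16474799 to 28078923 estimated counts. SOX2, the gene of the sort, stood at 418 to 467 CPM in the SOX2-positive libraries, at 1.85 to 5.98 CPM in the SOX2-negative libraries and at 652 to 676 CPM in control. That checks the sort and is not a result. The first principal component (46.3% of the variance) separated the SOX2-negative libraries from all others, and SOX2-negative 100 ng/ml replicate 2 lay apart on the second (16.3%), at -48 against -0.28 to 12.9 for the other SOX2-negative libraries. Summed over 10 definitive endoderm markers, the level was 1185 to 1786 CPM in SOX2-negative libraries at 100 and 1000 ng/ml, 59.6 to 80.7 CPM in SOX2-positive ones and 107 to 121 CPM in control. In control 6 of the 10 (SOX17, FOXA2, FOXA1, GATA4, GATA6 and CER1) were under 1 CPM, so the control sum rests on the others. Against control, SOX2-positive cells had 4 of the 10 higher (SOX17, FOXA2, GATA6 and GATA4) and 3 lower (PRDM1, HHEX and CXCR4). All 10 were called higher in SOX2-negative than in SOX2-positive cells, and no marker of that list was under 1 CPM in the SOX2-negative ones. Of 9 pluripotency markers 7 were lower in the same comparison and none higher, with a summed level of 2227 to 3345 against 4634 to 5647 CPM. In bulk RNA, fewer cells of a type and less RNA per cell cannot be told apart.

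On GRCh38 with the GENCODE 29 annotation, each SOXC gene is a single exon: SOX4 (ENSG00000124766) at chr6:21592768-21598619, SOX11 (ENSG00000176887) at chr2:5692667-5701385 and SOX12 (ENSG00000177732) at chr20:325595-330224, all on the plus strand. The SOXD genes are long and have many transcripts. SOX5 (ENSG00000134532) spans 1033 kb on the minus strand at chr12:23529500-24562544, SOX6 (ENSG00000110693) spans 773 kb on the minus strand at chr11:15966449-16739591, and SOX13 (ENSG00000143842) spans 54.6 kb on the plus strand at chr1:204073115-204127743. SOX8 (ENSG00000005513, chr16:981808-986979, plus strand) and SOX9 (ENSG00000125398, chr17:72121020-72126420, plus strand) have 3 exons in their longest coding transcript. SOX10 (ENSG00000100146, chr22:37970686-37987422, minus strand) has 4 and lies inside POLR2F, an RNA polymerase subunit gene on the opposite strand, with 89 exonic bases in common, 2.4% of its exonic length.

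RefSeq promoter windows on GRCh38.p14 (250 bases before a start site) matched 5 of the 9 genes: SOX4, SOX5, SOX6, SOX12 and SOX13. Shown are the windows of SOX12 and SOX13, the members with the steadiest levels, and of SOX5, a low member, each without bases that GENCODE places in an exon. SOX12 is chr20:325302-325551 (plus strand), SOX13 is chr1:204072865-204073114 (plus strand) and SOX5 is chr12:24562545-24562741 (minus strand), each printed 5′ to 3′ with motif matches in capitals.

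SOX12: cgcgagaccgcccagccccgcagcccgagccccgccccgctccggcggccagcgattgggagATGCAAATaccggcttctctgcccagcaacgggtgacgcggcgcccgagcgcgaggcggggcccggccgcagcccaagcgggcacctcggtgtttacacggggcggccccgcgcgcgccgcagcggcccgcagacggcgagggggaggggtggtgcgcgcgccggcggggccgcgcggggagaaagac

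SOX13: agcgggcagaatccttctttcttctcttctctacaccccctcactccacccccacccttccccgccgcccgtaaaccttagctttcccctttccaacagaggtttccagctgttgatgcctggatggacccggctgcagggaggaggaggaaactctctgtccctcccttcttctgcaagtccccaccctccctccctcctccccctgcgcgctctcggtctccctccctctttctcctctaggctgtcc

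SOX5: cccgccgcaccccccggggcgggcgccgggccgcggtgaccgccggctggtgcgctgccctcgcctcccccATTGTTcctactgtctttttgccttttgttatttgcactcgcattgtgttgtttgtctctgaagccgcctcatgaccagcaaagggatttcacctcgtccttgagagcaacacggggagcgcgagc

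Searched on both strands were the octamer ATGCAAAT, the letters bound by POU factors, the SOX core AACAAT and the TCF/LEF core CTTTGA, a choice made after looking at the windows. The octamer stood in the SOX12 window (79.2% GC), and was found in 1.63% of the 35116 windows of the same length. The SOX core, read as ATTGTT, stood in the SOX5 window (65.6% GC), and was found in 8.98% of all windows. None of the 3 motifs, of which the TCF/LEF core was found in 11.2% of windows, stood in the SOX13 window (60.8% GC) or in the SOX4 window. Of the 5 SOX6 windows, which are not shown, 3 held the SOX core and 1 of these also the TCF/LEF core. These matches do not overlap one another and are letters only, not binding sites.

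Set against transcript length, SOX13 and the SOXC genes stood highest. In control the levels per kb of the median coding transcript were 59.8 CPM for SOX13, 39.1 for SOX11, 36.6 for SOX4, 35.5 for SOX12 and 6.5 for SOX9. SOX5 (3.31), SOX10 (2.45), SOX8 (2.2) and SOX6 (0.315 CPM per kb) followed. SOX4 overlapped both SOX11 and SOX12 between the 2 control libraries, and SOX5, SOX10 and SOX8 overlapped in turn. The place of SOX13 depends on the transcript taken: with the longest it had 33.9 CPM per kb, below all SOXC genes. In the SOX2-positive libraries (n = 4) SOX4 was at 49.6 and SOX11 at 20.2 CPM per kb, while in the SOX2-negative libraries (n = 4) SOX12, at 35.9, was above SOX4, at 24.5, and SOX11, at 18.2. SOX10 stood below SOX9 in SOX2-positive cells (2.25 against 6.11 CPM per kb) and above it in SOX2-negative cells (3.71 against 2.42). With the longest transcript the SOX2-negative means were 2.55 for SOX10 and 2.41 for SOX9, and the order differed among libraries, so it is not settled there.

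**Figure D1:**
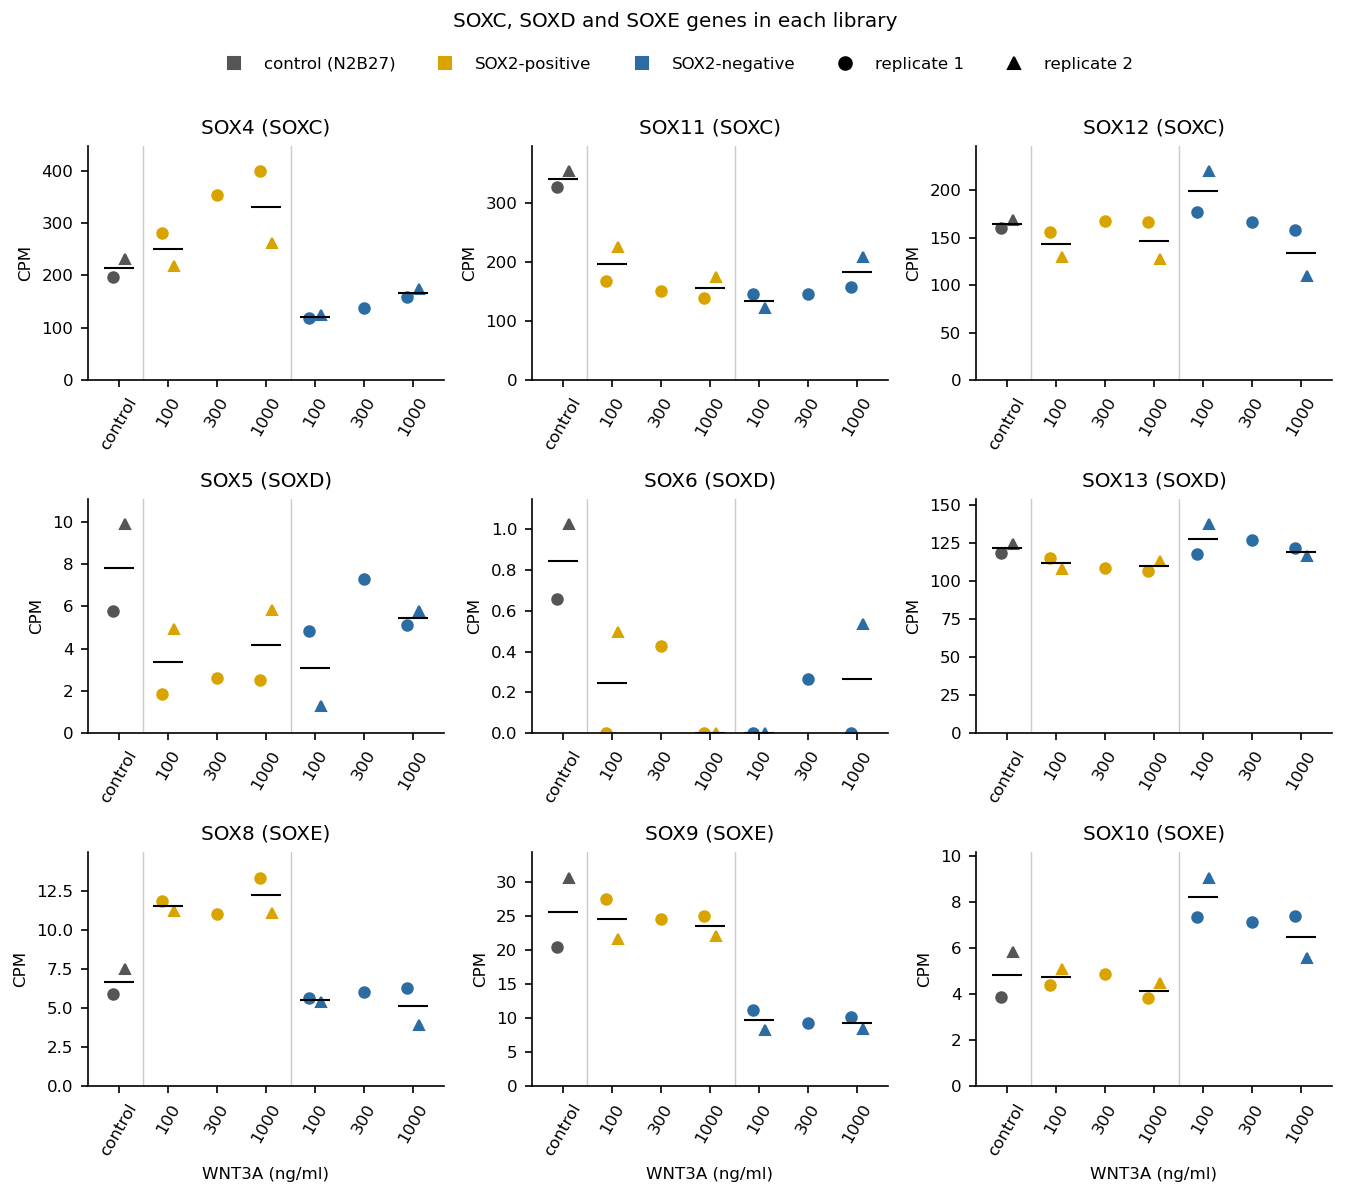
CPM of each of the 9 genes (one panel each, linear axis from 0) in the 12 libraries, by gate and WNT3A dose. Circles are replicate 1, triangles replicate 2 and bars the mean of 2. SOX4, SOX8 and SOX9 are lower in every SOX2-negative library than in any SOX2-positive one, while SOX11 is highest in the 2 control libraries.

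The first comparison set SOX2-negative against SOX2-positive cells, averaged over 100 and 1000 ng/ml WNT3A. SOX4, SOX8 and SOX9 were lower in the SOX2-negative cells, between 2.03- and 2.53-fold. No member was called higher, though SOX10 had its higher values there. Of 9 genes 3 passed the test, all lower. Over all 17047 genes tested 24% passed, 12.9% higher and 11.1% lower, and the median log2 difference was 0.01. Median log2 differences were -0.16 in SOXC, 0.10 in SOXD (the value of SOX5, with SOX6 counted) and -1.16 in SOXE. At these doses the libraries of the gates did not overlap for 5 of the 9 genes (26.6% of all genes, 13.1% lower and 13.5% higher). Without SOX2-negative 100 ng/ml replicate 2, the library that lay apart, SOX4, SOX8 and SOX9 still passed.

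SOX9, the cartilage, duct and gonad regulator of the SOXE subgroup, had 27.5 and 21.6 CPM at 100 ng/ml and 24.9 and 22.1 CPM at 1000 ng/ml in the SOX2-positive gate. In the other gate it had 11.3 and 8.2 CPM at 100 ng/ml and at 10.2 and 8.36 CPM at 1000 ng/ml. Every SOX2-negative library was below every SOX2-positive one, and the same held at 300 ng/ml (9.37 against 24.6 CPM). The means were 9.49 ± 1.47 (SD, n = 4) and 24 ± 2.73 CPM (n = 4), a log2 difference of -1.34 ± 0.20 (SE), with an edgeR adjusted p of 0.00072. Within the 5 pairs of gates from the same colonies, the SOX2-negative level was 0.379 to 0.41 of the SOX2-positive one, a narrow band across doses and repeats.

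SOX8, the SOXE paralogue of SOX9 and SOX10, was measured at 95 to 273 counts a library. It stood at 11.9 and 11.3 CPM (100 ng/ml) and 13.4 and 11.1 CPM (1000 ng/ml) in SOX2-positive cells, against 5.69 and 5.38, and 6.33 and 3.96 CPM in SOX2-negative cells. The gates did not overlap, and the 300 ng/ml libraries (11 against 6.05 CPM) lay with their gates. The log2 difference was -1.16 ± 0.22 (SE), with an edgeR adjusted p of 0.0031. The pair ratios ran from 0.355 to 0.549.

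SOX10, the neural crest and oligodendrocyte regulator, had its levels the other way round. In SOX2-positive cells its CPM were 4.41 and 5.11 at 100 ng/ml, 4.9 at 300 and 3.83 and 4.48 at 1000, and in SOX2-negative cells 7.36 and 9.06, then 7.12, then 7.39 and 5.56. No SOX2-negative library reached down to a SOX2-positive one, and the pair ratios ran from 1.24 to 1.93. The log2 difference was 0.71 ± 0.24 (SE, 95% interval 0.18 to 1.25), which did not pass, with an edgeR adjusted p of 0.056. It passed without SOX2-negative 100 ng/ml replicate 1 (0.035, edgeR), and over all 12 fits with 1 library left out the adjusted p was 0.035 to 0.17. POLR2F, whose exons overlap SOX10 and whose reads cannot be told apart from those of SOX10 in the shared bases where strand is not given, stood at 36.2 against 31 CPM in the same gates (log2 difference 0.19, edgeR adjusted p of 0.67). POLR2F was highest in SOX2-negative 100 ng/ml replicate 2 (56.2 CPM) and lowest in SOX2-negative 1000 ng/ml replicate 2 (17.1 CPM). Within that gate SOX10 was highest and lowest in the same libraries, and so was SOX12 (220 and 110 CPM), a gene on another chromosome. The part of POLR2F reads in the SOX10 levels was not tested.

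Among the SOXC genes, SOX4 stood at 281 and 219 CPM (100 ng/ml) and 399.8 and 262 CPM (1000 ng/ml) in SOX2-positive cells, and at 118 and 124, and 158 and 174 CPM in SOX2-negative cells. The gates did not overlap, although the SOX2-positive replicates of 1 dose differed by more than the SOX2-negative ones. The means were 143 ± 27.1 and 290.4 ± 77.5 CPM (SD, n = 4 each), the log2 difference -1.02 ± 0.17 (SE), and the edgeR adjusted p 0.0014. At 300 ng/ml, with no replicate, the levels were 139 and 354 CPM. The pair ratios ran from 0.391 to 0.663.

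The other SOXC genes gave no call between the gates. SOX11, a neural progenitor gene, stood at 123 to 209 CPM in SOX2-negative and 139 to 225 CPM in SOX2-positive libraries (log2 difference -0.16, 95% interval -0.52 to 0.20, edgeR adjusted p of 0.52). SOX12, the weakest activator of the subgroup, had intervals of similar width (0.17, -0.20 to 0.55, edgeR adjusted p of 0.5). For both genes the intervals leave out a change of 2-fold in either direction.

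In the SOXD subgroup no gene was called between the gates. SOX13, known from T cells and as a partner of TCF proteins, was the steadiest member. It stood at 107 to 115 CPM in SOX2-positive and 117 to 137 CPM in SOX2-negative libraries, with pair ratios of 1.02 to 1.27. Its log2 difference was 0.15 (95% interval -0.13 to 0.44, edgeR adjusted p of 0.43). SOX5, a partner of SOX9 in cartilage, had 30 to 270 counts a library and ranged over 1.83 to 5.84 CPM in SOX2-positive and 1.28 to 5.77 CPM in SOX2-negative libraries at 100 and 1000 ng/ml (2.61 and 7.28 CPM at 300), with an interval of -0.94 to 1.14 around 0.10. A 2-fold difference of SOX5 in either direction lay inside or at the edge of that interval. SOX6, the other SOXD partner of SOX9, had 12 counts over the 4 SOX2-positive and 13 over the 4 SOX2-negative libraries, and a 0 in 3 of 4 libraries of each gate, where a count of 0 allows up to 3 counts (counting error only). No fold is given for it.

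**Figure D2:**
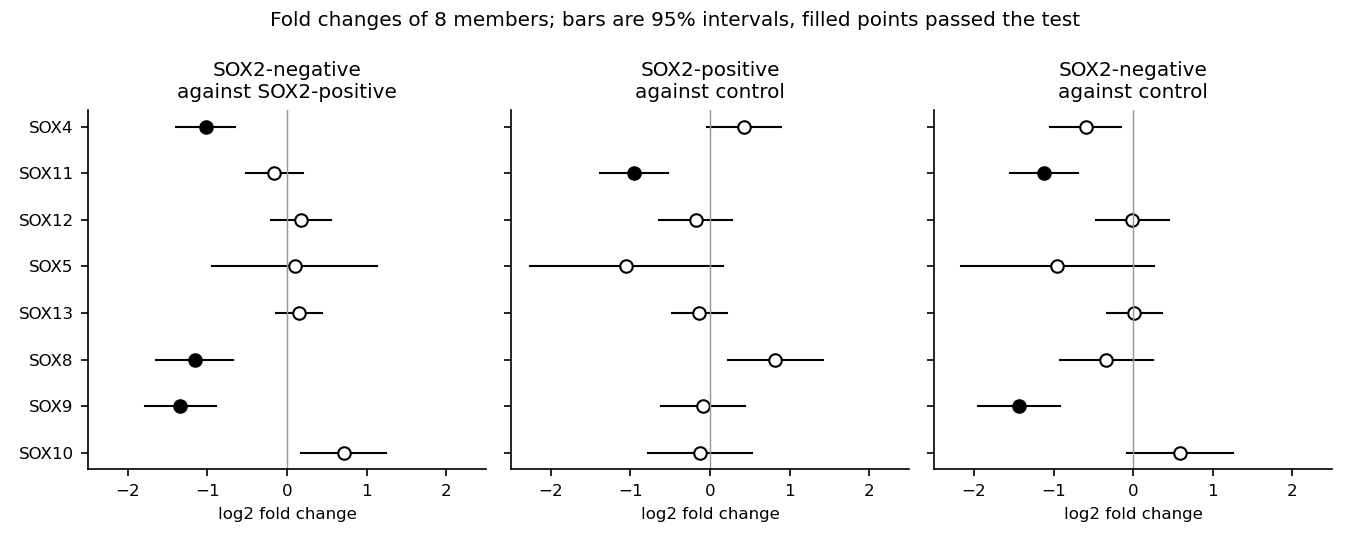
Log2 fold changes of 8 genes in 3 comparisons (points, with 95% intervals as bars), SOX6 left out because most of its libraries hold no count. Filled points passed the edgeR test at an adjusted p under 0.05: SOX4, SOX8 and SOX9 between the gates, SOX11 in SOX2-positive against control, SOX11 and SOX9 in SOX2-negative against control.

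The second comparison set each gate, averaged over 100 and 1000 ng/ml, against control. Both use the same 2 control libraries. SOX11 was lower than control in both gates. SOX9 was lower in SOX2-negative cells, and in SOX2-positive cells its range overlapped that of control. In SOX2-positive cells 1 of 9 genes passed, lower (7.81% of all genes passed, 4.65% higher and 3.17% lower). In SOX2-negative cells 2 of 9 passed, both lower (22.5% of all genes, 12.4% higher and 10.1% lower), a share near that of all genes. Median log2 differences of SOXC and SOXE were -0.18 and -0.09 in SOX2-positive and -0.60 and -0.34 in SOX2-negative cells, where the medians of all genes were 0.01 and 0.03. Those of SOXD were -1.05 and -0.95, in each case the value of SOX5 with SOX6 counted, and no SOXD gene was called.

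SOX11 stood at 327 and 355 CPM in control. In SOX2-positive cells it stood at 167 and 225 CPM (100 ng/ml), 151 CPM (300) and 139 and 174 CPM (1000). In SOX2-negative cells the levels were 146 and 123, 147, and 158 and 209 CPM. Both control libraries lay above all 10 treated ones. The log2 difference from control was -0.96 ± 0.19 (SE) in SOX2-positive cells (edgeR adjusted p of 0.013) and -1.12 ± 0.19 in SOX2-negative cells (edgeR adjusted p of 0.002). The call in SOX2-negative cells held whichever of the 12 libraries was left out (edgeR adjusted p of 0.00089 to 0.034). The call in SOX2-positive cells was lost without control replicate 1 (0.089), control replicate 2 (0.17), SOX2-positive 100 ng/ml replicate 1 (0.062) or SOX2-positive 1000 ng/ml replicate 1 (0.056, edgeR adjusted p in each case), and the range over all 12 was 0.0046 to 0.17. The summed level of 9 neural progenitor markers was 925 to 1039 CPM in control. At 100 and 1000 ng/ml it was 351 to 412 CPM in SOX2-positive and 362 to 439 CPM in SOX2-negative libraries (432 and 401 CPM at 300). SOX1 was under 1 CPM on average in every group. At 100 and 1000 ng/ml LHX2 and ZIC1 were under 1 CPM in both gates, and PAX6 in SOX2-negative cells. Most of the treated sum was NES, at 330 CPM in control, 302.5 CPM in SOX2-positive and 328.9 CPM in SOX2-negative cells. The sum differed from control mainly through OTX2 (350 CPM in control, 73.4 in SOX2-positive, 65.2 in SOX2-negative cells) and SIX3 (270, 4.53 and 5.6 CPM). The means of HES5 (0.298, 1.44 and 1 CPM) and FABP7 (7.36, 11.6 and 8.72 CPM) were above control in both gates. Against control, 3 of the 8 tested markers were lower in SOX2-positive and 5 in SOX2-negative cells, with 0 higher. The part of neural progenitors in the SOX11 difference was not tested.

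SOX9 had 20.4 and 30.6 CPM in control. It was lower in SOX2-negative cells by 2.7-fold (log2 difference -1.43 ± 0.23, edgeR adjusted p of 0.0014), with no overlap, and in SOX2-positive cells the log2 difference was -0.09 (95% interval -0.62 to 0.44, edgeR adjusted p of 0.89). For SOX8 the control values, 5.89 and 7.54 CPM, lay below those of all 5 SOX2-positive libraries, and the lower of them lay within the SOX2-negative range. Its log2 difference from control was 0.82 ± 0.27 in SOX2-positive cells (95% interval 0.22 to 1.42, edgeR adjusted p of 0.1) and -0.34 ± 0.26 in SOX2-negative cells (-0.92 to 0.25, edgeR adjusted p of 0.41), so neither passed. It passed in SOX2-positive cells when those and the control libraries alone were fitted (edgeR adjusted p of 0.022), and in none of the 12 fits with a library left out (0.061 to 0.48). SOX10, at 3.86 and 5.82 CPM in control, overlapped both gates, with log2 differences of -0.12 (-0.78 to 0.53) and 0.59 (-0.08 to 1.25).

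SOX4 stood at 196 and 232 CPM in control, above all 5 SOX2-negative libraries. SOX4 differed from control by -0.60 ± 0.20 on the log2 scale in SOX2-negative cells, just short of the threshold (edgeR adjusted p of 0.057). It passed when SOX2-positive 1000 ng/ml replicate 1 (0.043) or replicate 2 (0.048), or SOX2-negative 100 ng/ml replicate 1 (0.041) or replicate 2 (0.043, edgeR adjusted p in each case, 0.041 to 0.36 over all 12) was left out, and under DESeq2 (adjusted p of 0.024). In SOX2-positive cells the difference was 0.43 (95% interval -0.04 to 0.89, edgeR adjusted p of 0.28), with overlap. SOX12, at 160 and 168 CPM in control, had intervals of -0.64 to 0.27 and -0.47 to 0.45 in the 2 gates.

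Of the SOXD genes, SOX13 stood at 119 and 125 CPM in control, with log2 differences of -0.14 (-0.48 to 0.21) and 0.02 (-0.33 to 0.37). SOX5 stood at 5.79 and 9.88 CPM in control and had mean levels of 3.79 and 4.25 CPM in the gates. Its intervals, -2.26 to 0.16 and -2.17 to 0.26, were the widest after SOX6, and neither difference passed (edgeR adjusted p of 0.31 and 0.25). Without SOX2-negative 100 ng/ml replicate 1, SOX5 passed in SOX2-negative cells (log2 difference -1.59, edgeR adjusted p of 0.033, and 0.033 to 0.74 over all 12 libraries left out in turn). SOX6 had 13 and 28 counts in control, 0, 12, 9, 0 and 0 counts in the SOX2-positive libraries in order of dose and replicate, and 0, 0, 5, 0 and 13 counts in the SOX2-negative ones. As SOX6 was kept for testing through the few libraries that hold counts, highest in control, nothing is read from its comparison with control.

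At 100 and 1000 ng/ml the libraries did not overlap between SOX2-positive cells and control for 3 of the 8 genes other than SOX6, SOX11 and SOX13 lower and SOX8 higher (44.7% of all genes, 22.3% lower and 22.5% higher). Between SOX2-negative cells and control they did not overlap for 4 of these 8, SOX4, SOX11, SOX5 and SOX9, all lower (41.1% of all genes, 20% lower and 21% higher). With 2 control libraries, such separation was common in the whole table.

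The makeup of the SOXC subgroup, as shares of its summed CPM per kb, differed between the 3 kinds of library. In control the 3 genes were near parity, with SOX11 at 35.5% and 34.9%, SOX12 at 32.8% and 31.1% and SOX4 at 31.7% and 34%. In SOX2-positive cells SOX4 took the largest share in all 5 libraries, from 41% to 56.8%, and SOX11 the smallest, from 13.3% to 28.3%. In SOX2-negative cells SOX12 led in 4 of 5 libraries, with 43.1% to 57.4%. The exception was 1000 ng/ml replicate 2, where SOX4 had 38.4%, SOX11 30.9% and SOX12 30.7%. Counts of SOX11 were 1.67 and 1.53 times those of SOX4 in control, 0.348 to 1.03 times in SOX2-positive and 0.994 to 1.24 times in SOX2-negative libraries. The ratio of SOX10 to SOX8 counts likewise stood at 0.655 and 0.772 in control, 0.286 to 0.454 in SOX2-positive and 1.17 to 1.68 in SOX2-negative libraries. These ratios compare genes within a library, so the scaling between libraries does not enter them, and their differences between groups were not tested.

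**Figure D3:**
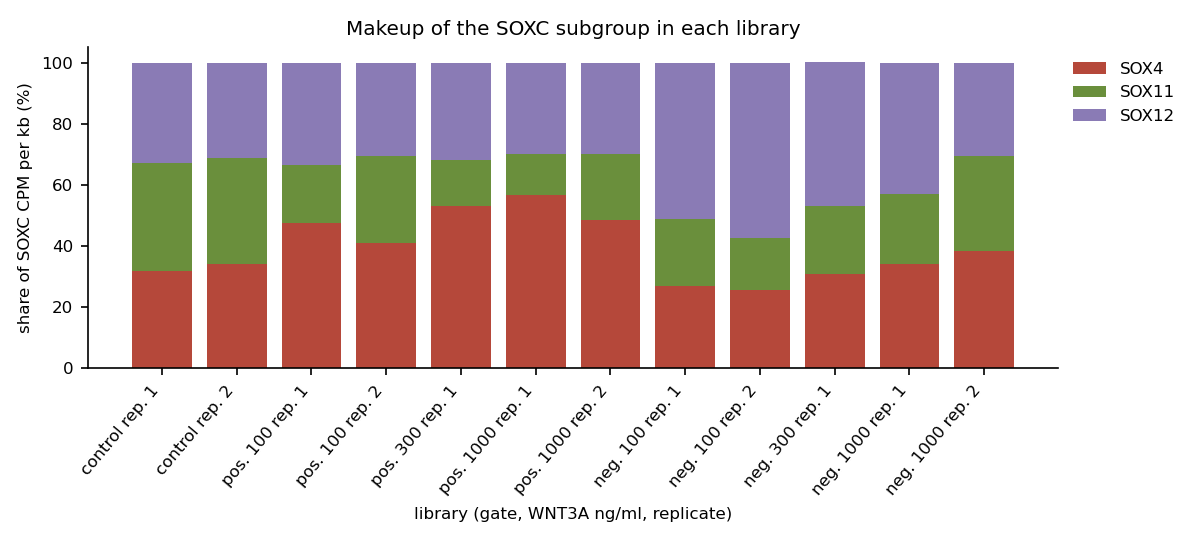
Share of summed SOXC CPM per kb held by SOX4, SOX11 and SOX12 in each of the 12 libraries (stacked bars, percent). SOX4 holds 41% to 56.8% in the SOX2-positive libraries, and SOX12 holds 43.1% to 57.4% in 4 of the 5 SOX2-negative ones.

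The third comparison set 1000 against 100 ng/ml WNT3A within each gate. None of the 9 genes passed in either gate, nor did any of the 17047 genes tested (0% called by edgeR in each gate). At an unadjusted p under 0.05 edgeR gave 293 genes in SOX2-positive cells, no member among them, and 3107 in SOX2-negative cells, SOX12 the only member, while DESeq2 called 5 and 411 genes and no member. SOX4 was higher at 1000 ng/ml in 4 of 4 matched pairs, by ratios of 1.2 to 1.42, and the 300 ng/ml library lay between the replicate 1 libraries of the other doses in both gates. Its log2 difference was 0.41 (95% interval -0.12 to 0.93) in SOX2-positive and 0.46 (-0.06 to 0.99) in SOX2-negative cells. In SOX2-positive cells it was 0.06 without 1000 ng/ml replicate 1 and 0.68 without 1000 ng/ml replicate 2. It was 0.60 without 100 ng/ml replicate 1 and 0.24 without 100 ng/ml replicate 2. SOX5 was likewise higher at 1000 ng/ml in 4 of 4 pairs, by ratios of 1.05 to 4.5, the highest resting on 1.28 CPM in SOX2-negative 100 ng/ml replicate 2. The share of all genes that moved 1 way in 4 of 4 pairs was not counted, so no trend with dose is read from these pairs. Averaged over the gates, a comparison chosen after seeing the data, the SOX4 difference was 0.43 ± 0.17 (SE, 0.06 to 0.80), with an edgeR adjusted p of 0.7, and 0% of genes were called (1190 at an unadjusted p under 0.05). SOX12 in SOX2-negative cells went from 177 and 220 CPM at 100 ng/ml to 159 and 110 CPM at 1000 ng/ml, with no overlap (41.7% of all genes in that gate, 20.1% lower and 21.6% higher), a log2 difference of -0.57 (-1.10 to -0.04) and an edgeR adjusted p of 0.26. The pair ratios of SOX12 were 0.894 and 0.499, the lower from the pair that holds SOX2-negative 100 ng/ml replicate 2, the library that lay apart. Without that library the log2 difference was -0.40, and without 100 ng/ml replicate 1 it was -0.70. Without 1000 ng/ml replicate 2 it was -0.33, and without 1000 ng/ml replicate 1 it was -0.85.

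SOX11 had dose ratios of opposite direction in the gates. In SOX2-positive cells its level at 1000 ng/ml was 0.831 and 0.774 times that at 100 ng/ml in the 2 repeats, and in SOX2-negative cells 1.09 and 1.7 times. So SOX11 was lower in SOX2-negative than in SOX2-positive cells in both repeats at 100 ng/ml (ratios 0.871 and 0.547) and higher in both at 1000 ng/ml (1.14 and 1.2). The difference of the dose effects was 0.77 ± 0.33 (SE, 95% interval 0.05 to 1.5) on the log2 scale and did not pass (edgeR adjusted p of 0.53). In that test edgeR called 0% of genes (1349 at an unadjusted p under 0.05, 2 members among them, SOX11 and SOX6) and DESeq2 16 genes and no member. SOX12 changed order between the gates the other way. Its SOX2-negative to SOX2-positive ratios were 1.14 and 1.7 at 100 ng/ml and 0.954 and 0.861 at 1000 ng/ml. Its difference of the dose effects was -0.61 (95% interval -1.36 to 0.14) and did not pass either (edgeR adjusted p of 0.53). For SOX9 the dose intervals were -0.67 to 0.55 and -0.70 to 0.56, and for SOX8 -0.58 to 0.75 and -0.80 to 0.58, so changes beyond about those sizes lie outside them.

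**Figure D4:**
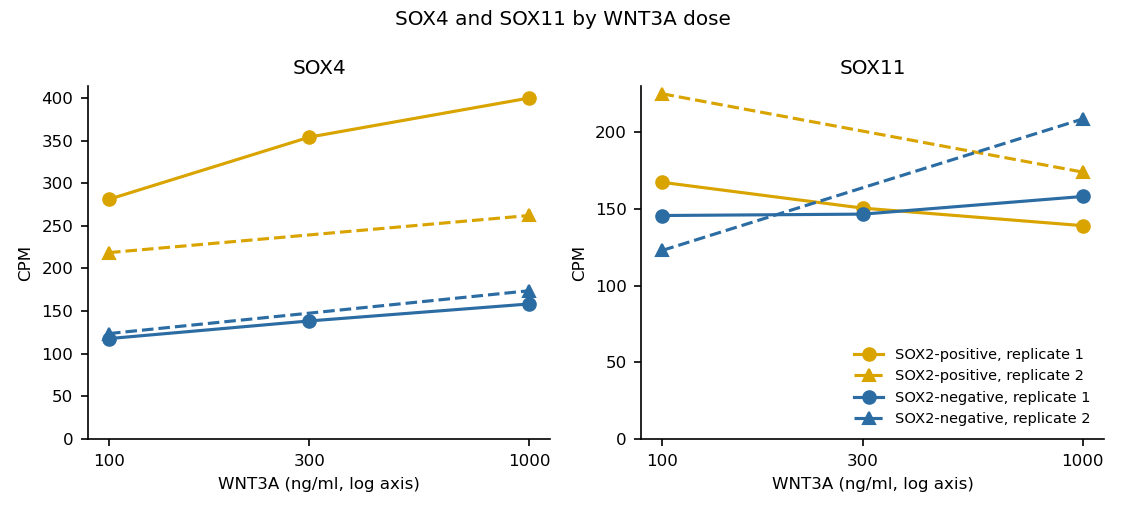
CPM of SOX4 and SOX11 by WNT3A dose (log axis), with lines joining libraries of 1 gate and replicate, solid for replicate 1 and dashed for replicate 2. All 4 SOX4 lines slope up, while the SOX11 lines slope down in both SOX2-positive and up in both SOX2-negative cases, with neither dose effect past the test.

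Other SOX genes, outside the 3 subgroups, had 5 calls between the gates, among them SOX2, which is the gene of the sort and not a result. Of 10, 7 were tested, with SOX17 and SOX18 (SOXF, endoderm and vessels) higher in SOX2-negative cells and SOX2, SOX3 and SOX21 (SOXB, neural and pluripotent cells) lower. SOX17 stood at 541 against 4.15 CPM (log2 difference 7.12 ± 0.39, edgeR adjusted p of 2.3e-06) and SOX3 at 0.573 against 18.4 CPM (-5.13 ± 0.68, edgeR adjusted p of 0.00031). SOX17 is also 1 of the endoderm markers above. Every called SOXC and SOXE difference was smaller than those 2 on the log2 scale.

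Cartilage genes, for which SOX9, SOX5 and SOX6 are known as activators, had calls in both directions while SOX9 was lower. Of 16 tested, 7 were higher in SOX2-negative cells and 2 lower, with a median log2 difference of 0.38. The type II collagen gene COL2A1 had 298, 526, 298, 218 and 276 CPM in the SOX2-negative libraries, in order of dose and replicate, and 7.69 to 17.6 CPM in the SOX2-positive ones, where control had 9.5 and 13.7 CPM. The gates did not overlap, and the log2 difference was 4.78 ± 0.30 (SE), with an edgeR adjusted p of 2.7e-06. COL9A2, a chain of collagen IX, stood at 772 against 27.8 CPM (4.83 ± 0.23, edgeR adjusted p of 5.7e-07), and the matrilin MATN3 at 52.4 against 6.6 CPM, with no overlap for either. The link protein HAPLN1 was called higher too, but its gates overlapped, with 1.56, 2.69, 6.21, 17.2 and 127 CPM in the SOX2-negative and 0.0951 to 3.3 CPM in the SOX2-positive libraries. HAPLN1 stood at 32.9 and 39.7 CPM in control, so that all but 1 of the treated libraries were below control. Lower were chondromodulin CNMD (1.43 against 34.3 CPM) and another collagen IX chain, COL9A1 (20.5 against 34.9 CPM, log2 difference -0.84 ± 0.18, edgeR adjusted p of 0.007). ACAN, the aggrecan gene, stood at 2.47 against 2.12 CPM with no call.

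**Figure D5:**
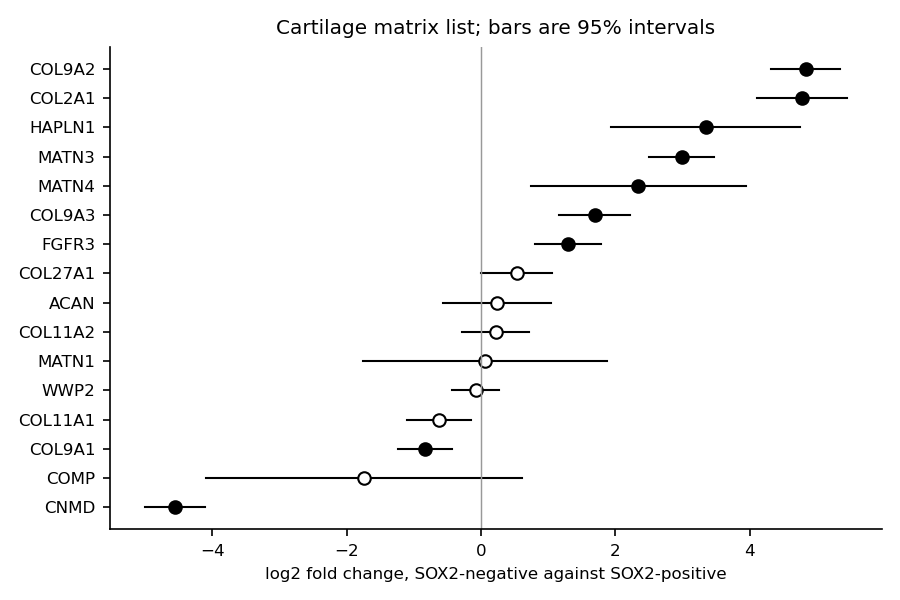
Log2 fold change of 16 cartilage matrix genes, SOX2-negative against SOX2-positive, with 95% intervals as bars and filled points for genes that passed the edgeR test. Of these, 7 lie to the right and 2 to the left, with COL9A2 at 4.83 and CNMD at -4.56 at the ends.

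Neural crest genes, the setting in which SOX9 and SOX10 are best known, were called in equal numbers each way between the gates: of 20, 18 were tested, 7 higher and 7 lower, median -0.78. MSX1 (83.9 against 2.19 CPM), SNAI2 (15.9 against 0.859 CPM), TWIST1 and PAX7 were higher, and mesoderm is known to express the first 3 as well. FOXD3 (0.269 against 35 CPM), which pluripotent cells also express, EDNRB and TFAP2A (5.12 against 18.1 CPM) were among the lower ones. Lateral and cardiac mesoderm markers summed to 213 to 566 CPM in SOX2-negative and 7.5 to 26.1 CPM in SOX2-positive libraries, and their part in these calls was not tested.

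Among 14 glial genes, for which SOXD and SOXE factors are known, 2 were higher in SOX2-negative cells and 5 lower, median -1.22. PTPRZ1, a receptor phosphatase, stood at 35.1 against 682 CPM (log2 difference -4.29 ± 0.33, edgeR adjusted p of 7.8e-06), where control had 205 CPM. SLC1A3, BCAN and NFIB were lower too. PDGFRA, the receptor of oligodendrocyte precursors and of mesoderm, was higher (28.3 against 2.75 CPM), as was NKX2-2. NKX2-2 had 0 counts in the control and SOX2-positive libraries. It was kept for testing only through the SOX2-negative ones, so nothing is read from its call.

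The foregut and duct list, where SOX9 is a progenitor factor, had 4 genes higher in SOX2-negative cells and 2 lower of 11 tested, median -0.34. HNF4A (24.3 against 0.327 CPM), FOXA2 (196 against 4.63 CPM) and KRT19 were among the higher ones, while SPP1 and PROM1 were lower. FOXA2 is 1 of the endoderm markers. PDX1 was not tested.

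Of 18 neuronal genes, the setting of SOX4 and SOX11, 14 were tested between the gates, 2 higher (ISL1 and STMN2) and 4 lower (MAP2, ELAVL3, PROX1 and DCX), median 0.15. MAP2, a dendritic microtubule protein, stood at 0.555 against 11 CPM, while ISL1, also a gene of lateral mesoderm, stood at 25.7 against 0.45 CPM. TUBB3 and TEAD2, which SOXC proteins are known to activate, gave no call between the gates (TEAD2 log2 difference -0.01, edgeR adjusted p of 0.98). Against control, TEAD2 was lower in both gates, at 312 CPM in control against 178.5 CPM in each gate (log2 differences -0.81 and -0.82, edgeR adjusted p of 0.027 and 0.011). TUBB3 was not called against control in either gate, at 312 CPM in control against 156 and 199.5 CPM (log2 differences -1.01 and -0.70, edgeR adjusted p of 0.059 and 0.11). TUBB3 and TEAD2 were chosen from the list after their values were seen. In SOX2-positive cells 3 of the 14 passed against control, all lower, and in SOX2-negative cells 6 passed, 2 higher and 4 lower.

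The genes closest in pattern to each member, by the mean absolute difference of centred log2 CPM over the 12 libraries among 11978 candidates, are given as descriptions. For SOX4 they were HK1 (0.142), a hexokinase, ASNS (0.142) and HERC5 (0.163), and for SOX11 they were TRIM59 (0.12), GAREM1 (0.125) and PIK3R3 (0.142). SOX9 was matched best by PPA1 (0.15), CCDC28B (0.156) and PGPEP1 (0.157), and SOX8 by C3orf52 (0.115), GNG4 (0.147) and WNK2 (0.152). SOX10 had CTDSP1 (0.111), RPN1 (0.112) and SLC26A11 (0.112) nearest. The steady genes had many close neighbours: SOX13 had RNF185 (0.0448), UBE2R2 (0.0492) and KIFC1 (0.0558), and SOX12 had MRPL49 (0.0694), PPP6R1 (0.0729) and MRPL51 (0.0745). The low genes had none as close, with MTUS1, ARHGAP10 and CFAP69 at 0.366 to 0.369 from SOX5 and FAT4 (0.809), HRK (0.858) and PALLD (0.874) nearest to SOX6.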

How the data were processed

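The values deposited are estimated counts for each gene, in 1 column per library, not scaled between libraries. They were made with Salmon on GRCh38, per the submitters' processing notes, and the Salmon version is not given in the sources used here. Per the labels' protocols, messenger RNA was captured by its poly-A tail, primed with random hexamers and read as paired ends. Strand and annotation release are not given in the sources used here, so overlapping genes are uncertain.

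Estimated counts were rounded, and 37951 identifiers were summed to 35940 symbols. edgeR 4.0.16 (R 4.3.3) fitted 1 mean for each of 7 groups over 12 libraries (TMM, filterByExpr with minimum count 10 and minimum total 15, quasi-likelihood test, two-sided), which leaves 5 residual degrees of freedom and a prior of 5.6. Benjamini-Hochberg adjustment ran over the 17047 genes tested in each of 6 comparisons, with a threshold of 0.05. DESeq2 1.42.0, other scalings, filters and fits, and leaving out each library were alternatives. The members, gene lists, markers and comparisons were chosen with earlier results of these data known. Named are the 9 members, SOX2, up to 4 called genes per list and direction between the gates with the highest fold change, and the 3 genes nearest to each member in pattern (mean of at least 5 CPM, prior count 2). Exceptions are marked, and a few genes under this rule are not reported here.

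Replicates are separate runs of the experiment on 1 line, and p-values cover only the spread between these runs. Libraries of 1 group differed beyond sampling noise (chi-square per degree of freedom 20.9 to 128.4). The series description makes the replicate number a shared run. Deviations of same-numbered libraries correlated at -0.06 to 0.22 across genes, over 0.1 in 5 of 10 pairs of groups. Tested on simulated data for the gate comparison (16540 genes), edgeR recovered 49.3% of 2-fold, 76.1% of 4-fold and 90.9% of 8-fold changes and called 0.055% of unchanged genes. The simulation changed only 67, 67 and 66 genes at these folds, and genes lost to the filter counted as missed. Its libraries were drawn with no shared run. In the data 24% of genes passed between the gates, so these rates need not hold there.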

Additional observations from a re-analysis of the deposited data

Results flagged for a closer look

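SOX11 stood out because every pair of one gate moved one way with dose and every pair of the other gate moved the opposite way. The share of all genes that do so was not counted, and SOX12 also changed order between the gates, as given above. From 100 to 1000 ng/ml WNT3A it went from 167 to 139 and from 225 to 174 CPM in the SOX2-positive repeats, and from 146 to 158 and from 123 to 209 CPM in the SOX2-negative repeats. The difference of the dose effects, SOX2-negative minus SOX2-positive, was 0.77 on the log2 scale, and as an interaction it was tested and did not pass (edgeR adjusted p of 0.53, 0.065 to 1 with single libraries left out).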

How the results depend on the processing

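Of 1085 values of single members under an alternative, 1070 kept their side of the threshold, 11 gained the call and 4 lost it, while 0 called values changed direction. Among values called in neither fit, 45 changed sign, so no direction is read from them. The lost ones are those of SOX11 in SOX2-positive cells against control given above. The calls of SOX4, SOX8 and SOX9 between the gates, and of SOX11 and SOX9 in SOX2-negative cells against control, held in all 12 fits with 1 library left out. SOX10 passed between the gates under DESeq2 (adjusted p of 0.0498). The replicate block, a term for the shared run, changed no call of a member. It gave 4106 genes between the gates, 1413 in SOX2-positive and 3894 in SOX2-negative cells against control. Neither it nor the main fit holds a term for gates sorted from the same colonies, which are fitted as independent libraries. In no scaling did the median of all genes move by over 0.1.

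For SOX2-positive cells against control (1332 genes, 1 member), no filter gave 2158 genes, DESeq2 2059, and the groups compared alone 3243 genes and 2 members. For SOX2-negative cells against control, no filter gave 4 members, with SOX4 (edgeR adjusted p of 0.026) and SOX6 (0.03) added. With dose in SOX2-positive cells (0 genes), no filter gave 107 genes, DESeq2 5 and identifiers kept apart 1. In SOX2-negative cells (0 genes), no filter gave 1551, DESeq2 411, the replicate block 1 and the groups compared alone 1. The difference of the dose effects (0 genes) gave 308 with no filter, 16 with DESeq2 and 1 with identifiers apart. The cause was not tested.

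With single libraries left out, the gate comparison gave 2638 (without SOX2-positive 100 ng/ml replicate 2) to 6835 genes (without SOX2-negative 100 ng/ml replicate 1) and 3 to 4 members. SOX2-positive cells against control gave 250 to 2439 genes and 0 to 1 members, with 440 without control replicate 1, 250 without control replicate 2, 702 and 831 without SOX2-positive 100 ng/ml replicate 1 and 2, 817 without SOX2-positive 1000 ng/ml replicate 1, and 2425 and 2439 without SOX2-negative 100 ng/ml replicate 1 and 2. SOX2-negative cells against control gave 1749 (without control replicate 2, and 1857 without control replicate 1) to 6111 genes (without SOX2-negative 100 ng/ml replicate 1) and 2 to 4 members. Dose gave 0 genes throughout in SOX2-positive cells, 0 to 5739 in SOX2-negative cells and 0 to 3795 for the difference, each highest without SOX2-negative 100 ng/ml replicate 1, and 0 members in each. Depth limits SOX6, whose counts of 0 in most treated libraries allow no fold.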
